A study of Mus musculus with 12 samples.

Results

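The genes described here are the mouse metallothioneins Mt1 and Mt2 and 7 genes of iron and heme handling: Hmox1, Slc40a1, Slc11a1, Fth1, Ftl1, Tfrc and Trf. They were listed by symbol, with earlier results of these data known, and make up 9 of the 31053 genes in the deposited matrices. Single cells of mouse were profiled by 10x 3′ RNA sequencing from tracheal allografts, from native trachea and from spleen, in a study of mononuclear phagocytes and airway fibrosis after transplantation. Each source was deposited for 4 samples, but all cells of a source stood in 1 matrix with no map from cells to samples. The 3 matrices were therefore read as 1 library each, and no difference between sources could be tested. The labels give no strain, genotype, sex, age, treatment or time after transplantation for any of the 3 groups, so what the donor and host of the allograft were is not stated in them.

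After filtering, 3858 allograft, 4148 native and 4573 spleen cells were used, with medians of 4965, 6552.5 and 4430 unique molecular identifiers (UMIs, each a counted RNA molecule) per cell. Cells were assigned to classes when they carried at least 3 of 6 markers of a class and more than of any other. No gene of the 9 was a marker. The labels call the cells of both tracheal groups mesenchymal progenitors, and the markers went against that name. Macrophage-gated cells made up 2012 allograft cells (52.2%), 1733 native cells (41.8%) and 80 spleen cells (1.75%), while fibroblast-gated cells numbered 34 (0.881%), 926 (22.3%) and 0. Few barcodes were shared between libraries: 3 between allograft and native, 4 between allograft and spleen, and 5 between native and spleen.

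Metallothioneins are small cysteine-rich proteins that bind zinc, copper and cadmium, and their genes are switched on through the metal-sensing factor Mtf1 and by glucocorticoids and oxidants. Macrophages take up iron from transferrin through the transferrin receptor (Tfrc) and from engulfed red cells, whose heme is opened by heme oxygenase 1 (Hmox1). The freed iron is moved out of the phagosome by Nramp1 (Slc11a1), stored in ferritin, which is built of heavy (Fth1) and light (Ftl1) chains, or exported through ferroportin (Slc40a1), the only known cellular iron exporter of mammals. Trf encodes transferrin, the iron carrier of plasma.

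Mt1 (ENSMUSG00000031765, chromosome 8, 94179082 to 94180327, plus strand) and Mt2 (ENSMUSG00000031762, chromosome 8, 94172664 to 94173568, plus strand) are neighbours on build mm10 with 5513 bases between them. Their promoters are shown because both genes differed between the tracheal libraries in every class compared below. The sequences are the 250 bases before the RefSeq start on GRCm38.p6, plus strand, with capitals marking each match to the core of the metal response element to which Mtf1 binds. The core was searched as TGCACNC or TGCGCNC on both strands, with overlapping matches counted apart.
Mt1 promoter, chr8:94178839-94179088: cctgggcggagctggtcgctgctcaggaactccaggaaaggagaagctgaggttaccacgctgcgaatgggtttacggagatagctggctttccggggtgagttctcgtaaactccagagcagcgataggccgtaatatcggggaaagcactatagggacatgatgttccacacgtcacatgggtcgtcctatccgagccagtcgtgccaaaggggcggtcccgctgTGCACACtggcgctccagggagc
Mt2 promoter, chr8:94172368-94172617: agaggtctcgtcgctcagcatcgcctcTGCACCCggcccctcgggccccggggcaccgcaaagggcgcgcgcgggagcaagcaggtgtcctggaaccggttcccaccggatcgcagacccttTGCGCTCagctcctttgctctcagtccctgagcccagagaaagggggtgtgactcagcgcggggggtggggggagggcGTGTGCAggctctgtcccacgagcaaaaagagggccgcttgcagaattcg
In the window that adds the 50 bases after the start, Mt1 held 3 matches, 1 of them before the start, and Mt2 held 4, 3 of them before the start. At least 1 match was found in 25.6% of 27025 mouse promoter windows of that length, at least 3 in 1.998% and at least 4 in 0.503%. Of the 2 Tfrc windows in the table, which differ in their start, 1 held 2 overlapping matches and the other held 0, and the windows of Slc11a1, Fth1 and Ftl1 held none. The core of the antioxidant response element, searched as TGACNNNGC on both strands, matched once in the Mt2 window, 79 to 71 bases before the start, and at least once in 12.5% of all windows. These are matches of letters in a window and no measurement of binding.

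Hmox1 (ENSMUSG00000005413) spans chromosome 8, 75093621 to 75100589, and Slc40a1 (ENSMUSG00000025993) chromosome 1, 45908068 to 45926523, minus strand. Slc11a1 (ENSMUSG00000026177) spans chromosome 1, 74375195 to 74386062, and Fth1 (ENSMUSG00000024661) chromosome 19, 9980598 to 9985098. Ftl1 (ENSMUSG00000050708) spans chromosome 7, 45457944 to 45459884, minus strand. Tfrc (ENSMUSG00000022797) spans chromosome 16, 32608920 to 32632794, and Trf (ENSMUSG00000032554) chromosome 9, 103204001 to 103230444, minus strand. Ftl1 has a copy in the matrices, Ftl1-ps1, and how reads were assigned between them was not tested. Ftl1-ps1 held 973 UMIs in the allograft, 828 in the native and 184 in the spleen library, against 213954, 200723 and 44721 for Ftl1. Fthl17a to Fthl17f and Mt4 held 0 UMIs, and Mt3 held 210, 95 and 12.

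Over all cells, the metallothioneins were the members that stood furthest apart between the tracheal libraries. Levels are given as CPM, the UMIs of a gene scaled to the same total of UMIs in each set of cells, and ratios carry 95% intervals that cover counting error only, since spread between animals is unknown. Mt1 stood at 299.6 CPM in the allograft, 2023 in the native and 49.4 in the spleen library, and was 6.75-fold lower in allograft than in native cells (6.59 to 6.92). Mt2 stood at 68.1, 642.7 and 24.2 CPM, and was 9.43-fold lower (8.98 to 9.92). Slc11a1, at 174.7, 85.7 and 21.9 CPM, was 2.04-fold higher in allograft than in native cells (1.94 to 2.14), and Slc40a1, at 28.3, 14.2 and 34.2 CPM, 1.99-fold higher (1.77 to 2.25). Of the 9 genes, 1 passed 2-fold upwards in the allograft and 2 passed it downwards, where 7.19% of all 16486 genes measured passed it upwards and 19.6% downwards. The upward call of Slc11a1 was lost when cells were weighted equally (log2 ratio 0.50) or thinned to the same depth (0.62), in place of 1.03.

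The iron storage genes differed less. Fth1 stood at 23265 CPM in the allograft, 13890 in the native and 2886 in the spleen library, 1.67-fold higher in allograft than in native cells (1.67 to 1.68). Ftl1 stood at 8398, 6532 and 1603 CPM (1.29-fold higher, 1.28 to 1.29). Hmox1 was within 1.05-fold (1.03 to 1.07) between allograft and native cells, at 650 and 617.9 CPM, beside 53.5 CPM in the spleen. Trf was 1.19-fold lower (1.15 to 1.23), at 213.4, 253.2 and 17.0 CPM, and the interval for Tfrc, at 16.5, 15.0 and 48.3 CPM, included no difference (1.10-fold higher, 0.963 to 1.26). The median log2 ratio of the 9 genes was 0.14, beside 0.01 for all genes.

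Most of the genes were higher in either tracheal library than in the spleen, whose cells were mostly B and T cells. Set against the spleen at 2-fold, 7 of 9 genes were higher in the allograft and 1, Tfrc, was lower, where 25% of 15881 genes were higher and 26.5% lower. In the native library 7 were higher and 2, Tfrc and Slc40a1, were lower, where 30.7% of 16846 genes were higher and 27% lower. The Tfrc calls did not hold: after thinning the log2 ratio was -0.47 in place of -1.55 for allograft against spleen and 0.13 in place of -1.69 for native against spleen. Slc40a1 in native against spleen cells fell short of 2-fold after thinning, at -0.94. Since the libraries differ in their mix of cells, the classes are described next.

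**Figure D1:**
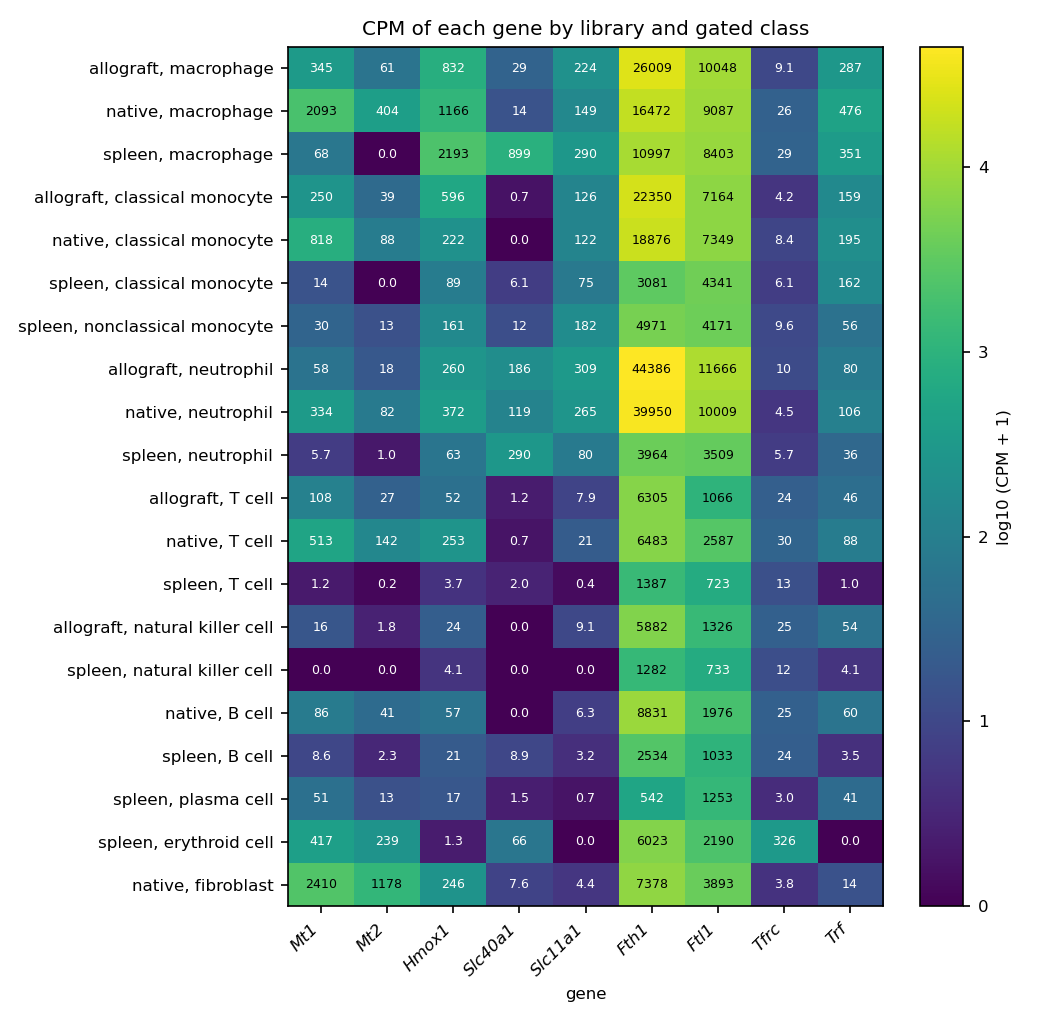
Levels of the 9 genes in each class of the allograft, native and spleen libraries, for classes with 50 or more cells. Numbers are CPM and colour gives log10(CPM + 1). In macrophages, classical monocytes, neutrophils and T cells the native library has the highest Mt1 and Mt2 values of the 3, and the high Slc40a1 values are those of spleen macrophages and of neutrophils.

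In macrophages Mt1 was detected in most cells of both tracheal libraries but at very different levels. It stood at 344.6 CPM in allograft, 2093 in native and 68.1 in spleen macrophages, 6.07-fold lower in allograft than in native cells (5.90 to 6.25). The median cell held 205.8 CPM of Mt1 in the allograft and 1286 CPM in the native library. UMIs of Mt1 were found in 69.6% of allograft and 92.4% of native macrophages. Cells were also thinned to 1000 UMIs each, leaving out shallower ones, which kept 1999 allograft, 1723 native and 67 spleen macrophages. Of these, 26.4% of allograft, 64.8% of native and 8.96% of spleen cells were Mt1-positive. Macrophages with 5 or more Mt1 UMIs after thinning made up 0.350% of the allograft cells (7 of 1999), 16.5% of the native cells (284 of 1723) and 0 of 67 spleen cells. The 1% of macrophages with the most Mt1 UMIs held 11.8% of the Mt1 UMIs in the allograft and 7.58% in the native library.

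Mt2 followed Mt1. It stood at 60.6 CPM in allograft and 404.4 CPM in native macrophages, 6.67-fold lower (6.23 to 7.16), and no Mt2 UMI was found among the 279077 UMIs of the spleen macrophages. With that 0 set to the limit of 3 counts, allograft macrophages held at least 5.64-fold and native macrophages at least 37.6-fold more Mt2 than those of the spleen. After thinning, Mt2 was detected in 8.35% of Mt1-positive allograft macrophages, against 3.80% of Mt1-negative ones, and 44 cells held both genes, 483 Mt1 alone and 56 Mt2 alone. In native macrophages the shares were 33.7% and 9.08%, and 376 cells held both, 741 Mt1 alone and 55 Mt2 alone. Mt1 made up 85.0% of the summed Mt1 and Mt2 UMIs in allograft and 83.8% in native macrophages.

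Both metallothioneins were 2-fold or more lower in all 4 classes with 50 or more cells in each tracheal library. Of all genes measured, 10.7% were lower in macrophages, 3.96% in classical monocytes, 6.98% in neutrophils and 13.4% in T cells. The share of all genes lower in all 4 classes was not counted. In neutrophils Mt1 stood at 58.4 CPM in the allograft, 334.3 in the native and 5.72 in the spleen library (5.67-fold lower in allograft than in native cells, 4.28 to 7.80). In the native library 6 neutrophils held 66.7% of these UMIs, and without the 1% of cells highest in Mt1 in each library the log2 ratio was -1.93 in place of -2.50. T cells held 108.1, 513.5 and 1.17 CPM (4.74-fold lower, 4.02 to 5.63), and classical monocytes 249.7, 817.9 and 14.2 CPM (3.28-fold lower, 2.83 to 3.79). Mt2 was 4.36-fold lower in allograft neutrophils (2.64 to 8.11), 5.23-fold lower in T cells (3.79 to 7.50) and 2.27-fold lower in classical monocytes (1.48 to 3.44). The order of the classes by Mt1 was macrophages, classical monocytes, T cells and neutrophils in both tracheal libraries.

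Free RNA can place UMIs of a gene in cells that do not express it. The 6 macrophage markers together stood at 160.6 CPM in allograft, 185.1 in native and 5.09 in spleen T cells, against 11518, 13556 and 8345 CPM in the macrophages of those libraries, with all 6 detected in each. In neutrophils they stood at 338, 270 and 81.0 CPM. Mt1 was found after thinning in 1.75% of allograft natural killer cells (2 of 114) and 3.70% of native B cells (2 of 54), the classes lowest in Mt1 in those libraries among the ones with 50 cells, with median depths of 4253 and 5192 UMIs. The Mt1-positive shares after thinning were 2.50% in allograft and 10.7% in native neutrophils, and 8.19% and 16.5% in T cells. The allograft neutrophil share thus lies near that of the natural killer cells. The part of free RNA in the values of neutrophils and T cells was not tested.

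Outside the blood lineages, structural cells also held metallothionein RNA. Native fibroblasts, 926 cells, held 2410 CPM of Mt1 and 1178 CPM of Mt2, with Mt1 in 83.2% of the cells. Allograft fibroblasts, 34 cells and too few for the comparison, held 789 CPM of Mt1 and 603 CPM of Mt2. Mt2 made up more of the pair here: Mt1 was 56.7% of the summed UMIs in allograft and 67.2% in native fibroblasts. In native fibroblasts Mt2 was detected after thinning in 67.3% of Mt1-positive and 18.2% of Mt1-negative cells. Native epithelial cells, 24 cells, stood at 2822 CPM of Mt1. In the spleen the erythroid cells were the class with the most metallothionein RNA, with 416.9 CPM of Mt1 and 238.7 CPM of Mt2.

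Genes known to respond to tissue handling were also lower in the allograft over all cells. The 12 immediate early and heat shock genes of that list summed to 4148 CPM in the allograft and 9885 CPM in the native library, with 7 of 12 lower 2-fold or more in the allograft and 0 higher, where 19.6% of all genes were lower. In macrophages they summed to 4291 and 8068 CPM, with 5 lower and 0 higher, where 10.7% of all genes were lower. In T cells they summed to 2519 and 2876 CPM, with 2 higher and 3 lower, where 11.2% of all genes were higher and 13.4% lower. In neutrophils the sums were 4956 CPM in the allograft and 3566 CPM in the native library. There 3 genes of the list were higher and 1 lower, where 7.44% of all genes were higher and 6.98% lower. In classical monocytes the sums stood at 3396 and 3179 CPM. Of 8 glucocorticoid-induced genes, 0 were higher and 1 lower over all cells, where 7.19% of all genes were higher and 19.6% lower. Their sums were 1192 and 1505 CPM. In macrophages 1 was higher and 3 lower, with sums of 1271 and 1455 CPM, where 7.16% of all genes were higher and 10.7% lower. In neutrophils 0 of 7 measured were higher and 1 lower, beside the neutrophil shares of all genes above. There the sums were 2454 CPM in the allograft and 1703 CPM in the native library. The part of handling or of glucocorticoids in the metallothionein values was not tested.

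**Figure D2:**
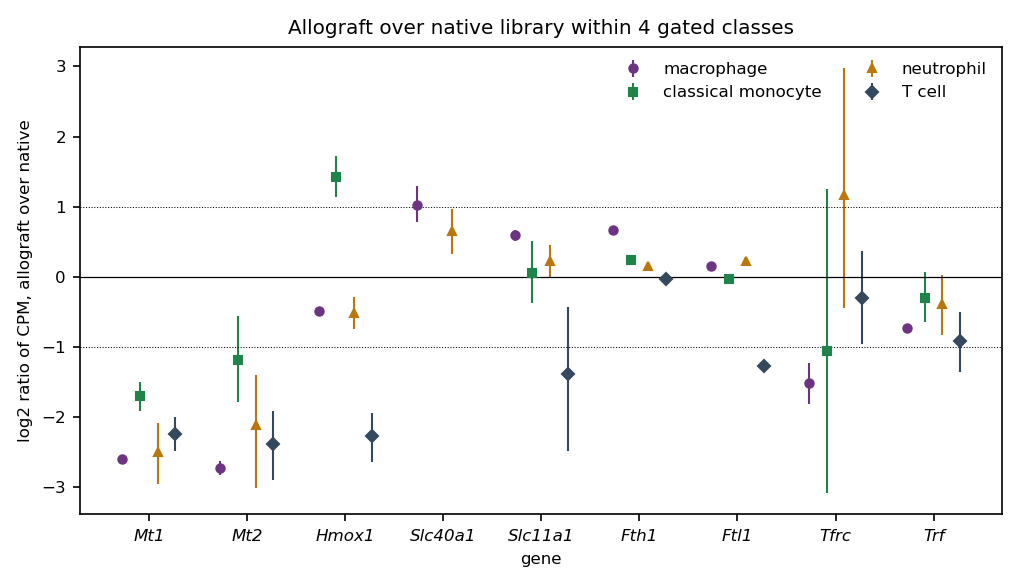
Log2 ratios of allograft over native CPM for the 9 genes in 4 classes, with 95% counting intervals and dotted lines at 2-fold. Genes under 10 summed UMIs are left out of a class. Mt1 and Mt2 lie below -1 in each class, Fth1 between -0.04 and 0.66, and Hmox1 changes side between classical monocytes and T cells.

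Hmox1, the enzyme that opens the heme ring, differed in direction between classes. It stood at 832 CPM in allograft, 1166 in native and 2193 in spleen macrophages, 1.40-fold lower in allograft than in native cells (1.37 to 1.43). In classical monocytes it was 2.67-fold higher (2.19 to 3.31), at 595.9, 222.3 and 89.1 CPM. In neutrophils it was 1.43-fold lower (1.22 to 1.68), at 260, 372.4 and 62.9 CPM. T cells held 51.9, 253.4 and 3.72 CPM (4.86-fold lower, 3.84 to 6.27), but 2 of the 200 native T cells held 66.1% of those UMIs. With the exclusive gate, which drops cells carrying 3 or more markers of another class, the log2 ratio in T cells was -1.23 in place of -2.28, and after thinning it was -1.36.

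Hmox1 was uneven among macrophages of each library. After thinning, no Hmox1 UMI was found in 58.0% of allograft, 55.5% of native and 41.8% of spleen macrophages, while 5.15%, 8.24% and 25.4% held 5 or more. Spleen macrophages were shallower, with a median of 2110 UMIs against 6834 in the allograft and 6373 in the native library. They also carried haemoglobin RNA, which summed to 39767 CPM over 4 genes, against 0.435 and 2.78 CPM in allograft and native macrophages, 30.9 CPM in spleen T cells and 569 CPM in spleen B cells. The part of engulfed or adhering red cell RNA in the spleen values was not tested. In native macrophages Mt1 was detected in 74.6% of Hmox1-positive and 57.0% of Hmox1-negative cells.

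Slc40a1, the iron exporter, was low in tracheal macrophages and high in those of the spleen. It stood at 29.4 CPM in allograft, 14.4 in native and 899 in spleen macrophages. The allograft value was 2.04-fold above the native one (1.71 to 2.45) and 30.7-fold below the spleen one (26.2 to 35.8). Few cells carried these UMIs: Slc40a1 was detected in 7.11% of allograft and 5.37% of native macrophages, against 53.8% of spleen macrophages. The 1% of macrophages with the most Slc40a1 UMIs held 52.2% and 51.5% of them in the tracheal libraries. After thinning, the allograft over native log2 ratio was 0.66 in place of 1.03.

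Neutrophils held more Slc40a1 than macrophages in both tracheal libraries. They stood at 185.6 CPM in the allograft, 118.7 in the native and 289.8 in the spleen library. UMIs of Slc40a1 were found in 21.5% of allograft, 21.1% of native and 64.2% of spleen neutrophils, and after thinning in 14.5%, 10.4% and 38.1%. The ratio between allograft and native neutrophils was 1.56 (1.25 to 1.96), and the allograft level was 1.56-fold below that of the spleen (1.29 to 1.90). T cells of the allograft and native libraries held 2 and 1 UMIs of the gene, and classical monocytes 1 and 0.

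Slc11a1, the phagosomal metal transporter known for its part in resistance to intracellular microbes in mice, was a gene of phagocytes in all libraries. It stood at 224.2 CPM in allograft, 149.1 in native and 290.2 in spleen macrophages, 1.50-fold higher in allograft than in native cells (1.42 to 1.59). Neutrophils held 309.3, 264.9 and 80.1 CPM, and the interval between allograft and native included no difference (1.17-fold higher, 0.993 to 1.37). Classical monocytes held 126, 122 and 74.9 CPM. In T cells it stood at 7.94, 21.3 and 0.391 CPM, and fibroblasts held 6.28 CPM in the allograft and 4.42 CPM in the native library.

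Fth1, the ferroxidase chain of ferritin, was the member with the most UMIs. In macrophages it stood at 26009 CPM in the allograft, 16472 in the native and 10997 in the spleen library, 1.58-fold higher in allograft than in native cells (1.57 to 1.59). The median cell held 19753 CPM in allograft and 13100 CPM in native macrophages. Neutrophils were higher still in both tracheal libraries, at 44386 and 39950 CPM, but stood at 3964 CPM in the spleen. Allograft neutrophils were thus 11.2-fold above spleen neutrophils (10.8 to 11.6) in Fth1 and 3.32-fold in Ftl1 (3.20 to 3.45). B cells of the native library held 8831 CPM and those of the spleen 2534 CPM, and natural killer cells of the allograft held 5882 CPM and those of the spleen 1282 CPM. Fth1 was thus higher than in the spleen in each class of the tracheal libraries that had 50 cells in both, lymphocytes included, and the part of free Fth1 RNA in them was not tested.

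Ftl1 is the light chain. In macrophages it stood at 10048, 9087 and 8403 CPM, 1.11-fold higher in allograft than in native cells (1.10 to 1.11). Fth1 made up 72.1% of the summed ferritin UMIs in allograft, 64.4% in native and 56.7% in spleen macrophages. In neutrophils the shares were 79.2%, 80.0% and 53.0%. Spleen plasma cells stood lowest, at 30.2%. In T cells Fth1 stood at 6305 CPM in the allograft and 6483 in the native library, while Ftl1 was 2.43-fold lower in the allograft (2.29 to 2.57), at 1066 and 2587 CPM.

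**Figure D3:**
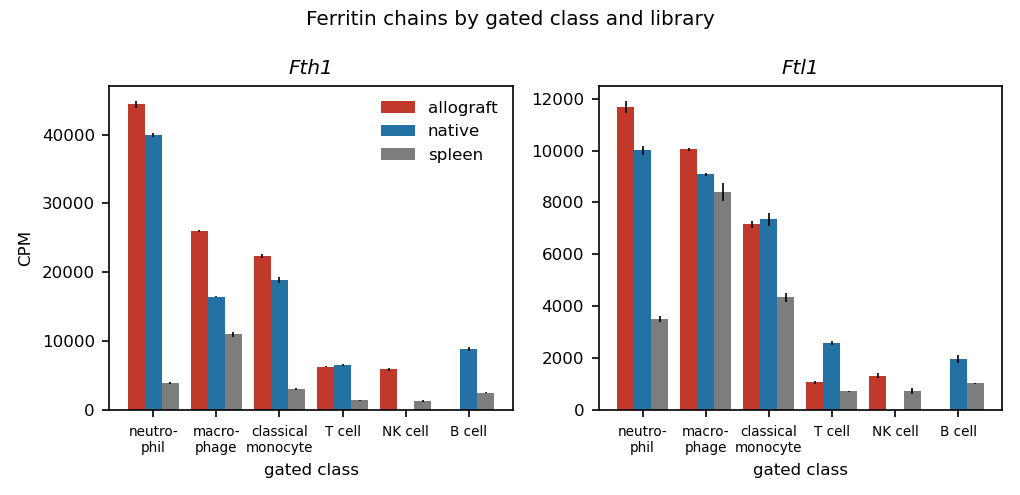
Fth1 and Ftl1 levels in CPM in 6 classes, for libraries with 50 or more cells of the class, with 95% Poisson intervals as error bars. Tracheal neutrophils reach 44386 and 39950 CPM of Fth1 in the allograft and native libraries, against 3964 CPM in spleen neutrophils.

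Tfrc and Trf, the receptor and its ligand, were both lower in allograft macrophages. Tfrc stood at 9.13 CPM in allograft, 26.3 in native and 28.7 in spleen macrophages, 2.87-fold lower in allograft than in native cells (2.36 to 3.52). Trf stood at 286.5, 475.9 and 351.2 CPM (1.66-fold lower, 1.60 to 1.73) and its log2 ratios in the 4 classes were -0.92 to -0.30, none of them reaching 2-fold. The Trf intervals included no difference in classical monocytes (1.23-fold lower, 0.954 to 1.57) and neutrophils (1.32-fold lower, 0.986 to 1.79). In T cells Trf passed 2-fold, at a log2 ratio of -1.04, without the 1% of cells highest in it. Trf was detected in 66.3% of allograft and 81.9% of native macrophages. The Tfrc ratio rested on macrophages of the Lyve1 type, described below: without cells of the Lyve1 type the log2 ratio was 0.14 in place of -1.52.

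Outside macrophages, the highest Tfrc levels were those of erythroid cells and chondrocytes. Spleen erythroid cells held 325.8 CPM, with UMIs in 90.3% of the cells, and 30 allograft chondrocytes held 260.3 CPM, of which 1 cell held 25.6%. T cells held 24.4 CPM in the allograft and 30.1 in the native library, and neutrophils and classical monocytes held 3 to 9 UMIs per library. Erythroid cells take up transferrin iron for haemoglobin, and no UMI of Trf or Slc11a1 was found in them, which allows up to 1.29 CPM.

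Counted by class, 1 of 9 members was 2-fold or more higher in allograft macrophages and 3 were lower, where 7.16% of 13772 genes were higher and 10.7% lower. In neutrophils 1 was higher, Tfrc with 9 and 6 UMIs, and 2 were lower, where 7.44% of 7693 genes were higher and 6.98% lower. In classical monocytes 1 of 8 measured members was higher and 3 were lower, Mt1, Mt2 and, on 6 and 4 UMIs, Tfrc, where 13.6% of 8283 genes were higher and 3.96% lower. In T cells 0 of 8 were higher and 5 lower, where 11.2% of 10168 genes were higher and 13.4% lower. The lower ones were Mt1, Mt2, Ftl1, Slc11a1 on 13 and 29 UMIs, and Hmox1, whose native value rested mostly on few cells, as given above. Set against spleen macrophages, 3 members were higher and 3 lower in those of the allograft, where 11.5% of 12497 genes were higher and 29.9% lower. In native macrophages 2 were higher and 1 lower, where 12.9% of 12463 genes were higher and 31.4% lower. Set against spleen neutrophils, 7 members were higher and 0 lower in those of the allograft, where 18.1% of 8082 genes were higher and 26.6% lower. In native neutrophils 7 were higher and 1, Slc40a1, was lower, where 16.9% of 8485 genes were higher and 28.3% lower. Native against spleen log2 ratios of all genes had a median of -0.49 in macrophages and -0.35 in neutrophils, and those of allograft against spleen -0.45 and -0.24. The native T cells include cells with Rag1, Rag2 or Dntt, genes of developing lymphocytes. With such cells left out, 7 members were 2-fold or more apart in either direction in place of 5, where 24.6% of all genes were so with them in. The added ones were Tfrc, which turned to a log2 ratio of 1.23 in place of -0.30, higher in the allograft, and Trf, at -1.49 in place of -0.92.

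Macrophages were divided by markers that are not among the 9 genes. The Lyve1 type gate took 108 allograft and 1002 native cells, the Gpnmb type gate 467 and 34, the Cd5l type gate 118 and 54, and the gate for Arg1 or Nos2 237 and 7. A remainder of 1207 and 683 cells met none. The gates overlap, by 76 allograft cells between the Gpnmb type and the Arg1 or Nos2 gate and by 34 native cells between the Lyve1 and Cd5l types. The gates thus differ in size between the libraries, and the comparisons within them follow.

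Mt1 was lower in allograft cells within each gate that had 50 or more cells in both libraries. In the Lyve1 type it stood at 446.3 CPM in the allograft and 2372 in the native library (5.31-fold lower, 4.77 to 5.94). In the Cd5l type it stood at 338.8 and 2097 CPM (6.18-fold lower, 5.48 to 6.996), and in the remainder at 344.7 and 1728 CPM (5.01-fold lower, 4.80 to 5.23). Over the gates with 20 or more cells, levels ran from 1728 to 2372 CPM in the native library. In the allograft they ran from 311.7 to 446.3 CPM, below the native range. The gates of a library come from the same pool of cells and in part share cells, so they are not independent repeats of the difference. How many of all genes had gate ranges apart in this way was not counted. Mt2 was 5.89-fold lower in the Lyve1 type (4.60 to 7.80), 13.8-fold lower in the Cd5l type (9.67 to 20.6) and 5.13-fold lower in the remainder (4.64 to 5.68).

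Hmox1 split by gate. It was 1.28-fold lower in the Lyve1 type (1.20 to 1.37), at 1206 CPM in allograft and 1547 in native cells. In the Cd5l type it was 1.29-fold higher (1.17 to 1.43), at 1395 and 1080 CPM, and in the remainder 1.20-fold higher (1.15 to 1.25), at 847.7 and 707.7 CPM. Within the native library the Lyve1 type held 1547 CPM against 714 CPM in the other macrophages. The lower Hmox1 of all allograft macrophages thus stood beside a smaller number of Lyve1 type cells in that library.

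**Figure D4:**
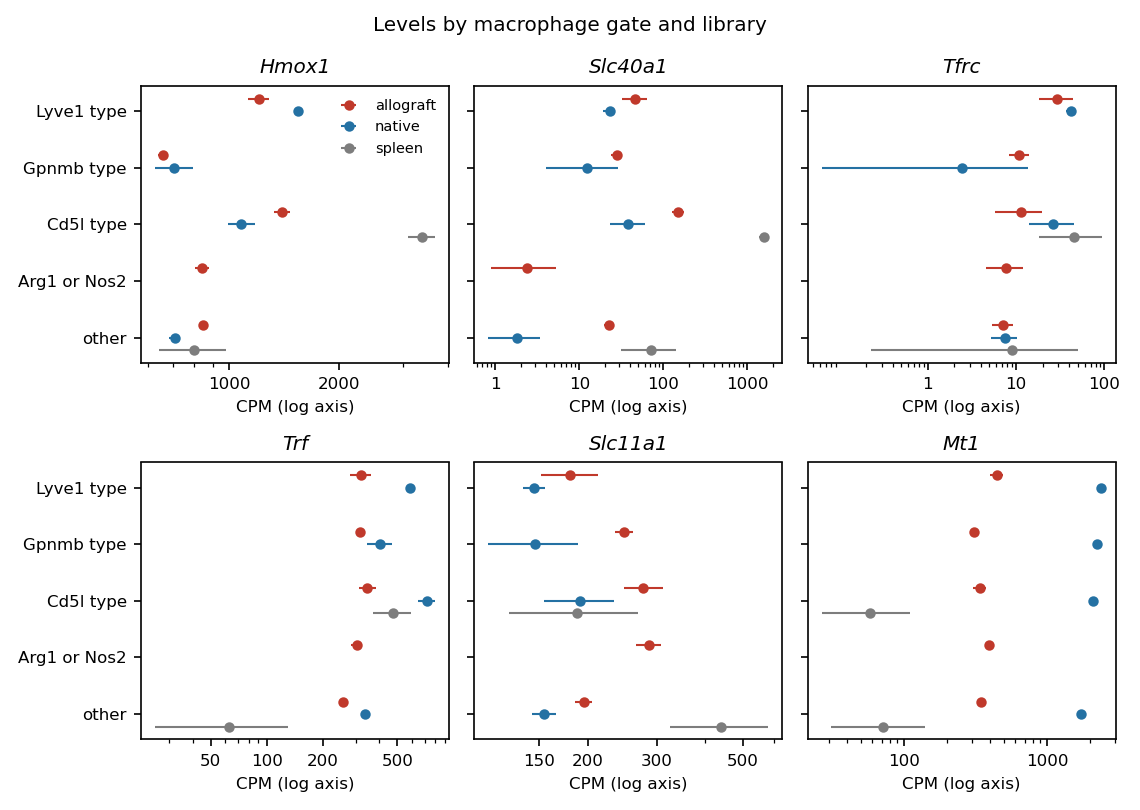
Levels of Hmox1, Slc40a1, Tfrc, Trf, Slc11a1 and Mt1 by macrophage gate in the allograft, native and spleen libraries for gates with 20 or more cells, with 95% Poisson intervals, in CPM on log axes. Mt1 is lower in the allograft than in the native library in the 4 gates shown for both, and Slc40a1 and Hmox1 reach their highest values in the Cd5l type of the spleen.

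Among the gates with 20 or more cells, Slc40a1 was highest in the Cd5l type of each library. This gate was built on Cd5l, Spic and Vcam1, genes known in red pulp macrophages, which recycle iron from aged red cells. Cd5l type cells held 150.6 CPM in the allograft, 38.5 in the native and 1571 in the spleen library, and 3.82-fold more in allograft than in native cells (2.42 to 6.67). In the allograft 28.0% of them carried a UMI, and the level was 7.25-fold that of the other macrophages (5.94 to 8.78), which stood at 20.8 CPM. In the spleen 90.5% of the 42 cells carried one, and the level was 23.1-fold that of the other 38 macrophages (12.2 to 57.3). Haemoglobin RNA summed to 51461 CPM in these spleen cells, whose Hmox1 stood at 3376 CPM against 723 CPM in the other spleen macrophages.

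Among allograft macrophages the exporter was low in those with Arg1 or Nos2 RNA, a gate that took too few native cells (7) to compare. Allograft cells with Arg1 or Nos2 held 2.41 CPM of Slc40a1, on 6 UMIs, against 34.3 CPM in the other allograft macrophages (13.1-fold lower, 6.47 to 38.9). The same cells held 38548 CPM of Fth1, against 23722 CPM (1.62-fold higher), and 99.4 CPM of Mt2, against 53.5 CPM. Gpnmb type cells, which carry genes of lipid-laden and scar-associated macrophages, held 13363 CPM of Ftl1, against 8299 CPM in the other allograft macrophages (1.61-fold higher). In the remainder outside all gates Slc40a1 was 11.8-fold higher in the allograft (6.42 to 27.7), at 22.6 CPM against 1.82 CPM, the native value resting on 9 UMIs.

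Tfrc was highest in the Lyve1 type among native macrophages. It stood there at 42.2 CPM, against 7.35 CPM in the other native macrophages (5.68-fold higher, 4.11 to 8.22). In allograft Lyve1 type cells it stood at 28.9 CPM, and the interval between the libraries included no difference (1.43-fold lower, 0.946 to 2.37). In the Cd5l type it stood at 11.3 CPM in the allograft and 26.3 CPM in the native library (2.32-fold lower, 0.981 to 5.59), on 12 and 13 UMIs. In the remainder it stood at 7.09 and 7.47 CPM (1.06-fold lower, 0.677 to 1.62). Trf was lower in allograft cells in these gates, by 1.84-fold in the Lyve1 type (1.62 to 2.11), 2.08-fold in the Cd5l type (1.79 to 2.42) and 1.30-fold in the remainder (1.22 to 1.39).

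By count, 1 member was 2-fold or more higher and 2 were lower in allograft Lyve1 type cells, where 9.83% of 11410 genes were higher and 13% lower. In the Cd5l type 1 was higher and 4 were lower, where 12.6% of 8237 genes were higher and 6.87% lower. In the remainder 1 was higher and 2 were lower, where 9.14% of 12176 genes were higher and 5.94% lower.

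**Figure D5:**
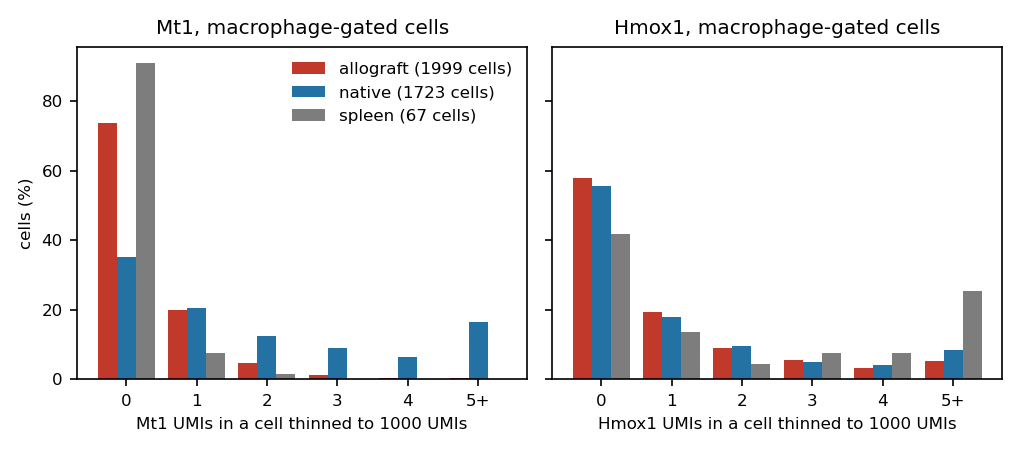
Distribution of UMIs per macrophage after thinning each cell to 1000 UMIs, for Mt1 and Hmox1, as a percentage of cells in the allograft, native and spleen libraries. Mt1 is absent from 73.6% of thinned allograft and 35.2% of thinned native macrophages, and 16.5% of native macrophages hold 5 or more.

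Other genes of the same pathways were read from lists of 76 genes. Of 14 measured zinc and copper genes, 2 reached 2-fold upwards in the allograft over all cells and 0 downwards. Of all genes, 7.19% did so upwards and 19.6% downwards. The median log2 ratio of the list was 0.33, beside 0.01 for all genes. Slc30a1, the zinc exporter of the cell surface and like the metallothioneins a target of Mtf1, ran against them: it stood at 58.8 CPM in the allograft and 17.3 in the native library (3.40-fold higher). It was 2.64-fold higher in macrophages, at 67.7 and 25.7 CPM, and 3.03-fold higher in classical monocytes, at 117.2 and 37.8 CPM. Its promoter window held 2 matches to the metal response element core, 1 of them before the start, where 7.11% of all windows held at least 2. It also held 1 match to the antioxidant response element core, found at least once in 12.5% of all windows. The part of Mtf1 in these values was not tested. Of 12 genes of the Nrf2 and Bach1 pathway, which also controls Hmox1, 1 was higher and 0 lower (median 0.50). The share of higher genes was near that of all genes (7.19%). The higher gene was Prdx1, a peroxidase, at 1338 and 627 CPM (2.13-fold higher).

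Of 16 measured genes of iron and heme uptake, 0 were 2-fold or more higher and 7 lower over all cells (median -0.58), where 7.19% of all genes were higher and 19.6% lower. In macrophages 1 of 12 was higher and 2 lower, near the shares of all genes (7.16% and 10.7%). Cd163, the scavenger receptor for haemoglobin bound to haptoglobin, stood at 8.20 CPM in allograft and 233.8 CPM in native macrophages (28.4-fold lower). Within the gates it was 4.84-fold lower in the Lyve1 type (3.77 to 6.43), at 77.4 and 378.2 CPM, 33.2-fold lower in the Cd5l type (13.9 to 140.1), where the allograft held 4 UMIs, and 7.84-fold lower in the remainder (6.02 to 10.5). Lcn2, which binds iron-loaded siderophores, was 3.76-fold lower in allograft neutrophils, at 743.5 and 2800 CPM. In classical monocytes Hp, which encodes haptoglobin, was 2.70-fold lower, at 161.6 and 436.2 CPM. Of 5 genes of export and oxidation 0 were higher and 3 lower over all cells (median -1.47), among them Cp, the plasma ferroxidase, at 21.5 and 59.7 CPM. The libraries differ in their mix of cells, with 34 allograft and 926 native fibroblasts, and the part of that mix in these values was not tested. None of 8 genes of iron sensing and none of 17 of heme synthesis, heme breakdown and mitochondrial iron was 2-fold or more apart over all cells, with medians of 0.20 and 0.06.

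In classical monocytes Hmox1 was higher in the allograft, as given above. Of 11 measured genes of the Nrf2 and Bach1 pathway, 3 were 2-fold or more higher there and 0 lower (median log2 ratio 0.53). Of all genes, 13.6% were higher and 3.96% lower (median 0.17). Among the higher ones of the list was Gclm, a target of Nrf2 and a subunit of the enzyme that makes the glutathione precursor. Gclm was 3.77-fold higher (1.87 to 10.3), at 59.0 and 14.7 CPM, the native value resting on 7 UMIs. The part of Nrf2 in the Hmox1 values was not tested. Of 15 measured genes of heme synthesis, heme breakdown and mitochondrial iron, 3 were higher in these monocytes and 3 lower. Among the higher ones was Blvrb, a biliverdin reductase, at 134.6 and 65.0 CPM (2.04-fold higher). In T cells Bach1, which encodes a repressor of Hmox1, was 4.99-fold lower (3.81 to 6.70), at 39.1 and 196.1 CPM. This ratio was not recomputed without the cells with Rag1, Rag2 or Dntt, and a link to the Hmox1 values was not tested. Slc7a11, the cystine importer, was 7.18-fold lower in T cells, at 27.5 and 199.1 CPM, but 4.35-fold higher in the Cd5l type macrophages of the allograft, at 224 and 50.6 CPM. Neutrophils held far more of it, 4126 CPM in the allograft and 2513 CPM in the native library, and the part of free RNA in the T cell values was not tested.

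The genes whose levels were most like each member's were ranked over the 20 pairs of library and class with 50 or more cells, by Pearson correlation of log2(CPM + 10) among 7086 genes. These pairs share libraries and depth, so the values describe and are not tested. Mt1 was most like Mt2 (0.94), Clic4 (0.87) and Ctsl (0.86), and Mt2 after Mt1 was most like Sphk1 (0.89) and Lzts2 (0.87). Hmox1 was most like Jup and Cxcl16 (0.91 each) and Hexa (0.90). Slc40a1 was most like Trpm2 (0.86), Siglece and Klra17 (0.83 each), and Slc11a1 like Cd300c2 (0.98), Lrrc25 and Mpeg1 (0.96 each). The ferritin chains had different neighbours: Fth1 was most like Ehd1 (0.94), Tuba1c (0.93) and Ptpn23 (0.92), and Ftl1 like the proton pump genes Atp6v0d1 and Atp6v1a (0.93 each) and Lamp2 (0.92). Tfrc was most like Dscc1 (0.93), Abcb4 (0.92) and Timeless (0.90), and Trf like Cd68 (0.90), Cfp (0.88) and Clec4b1 (0.87).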

How the data were processed

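The deposited values were raw UMI counts per barcode. Per the file headers the authors used Cell Ranger 3.1.0, and per the submitters' processing notes the build was mm10. The filters of the authors and the annotation release are not given in the sources used here. Gene positions came from GENCODE M21, and promoters from RefSeq for 6 of the 9 genes.

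Barcodes with at least 500 genes and at most 20% mitochondrial UMIs were kept (3895 allograft, 4156 native and 4579 spleen). The scrublet method (scanpy 1.11.5) then marked 37, 8 and 6 as doublets, 0.950%, 0.192% and 0.131%. The expected shares were 3.69%, 3.70% and 3.88%, so most doublets stayed in. Cells were gated with 6 markers for each of 18 classes, and macrophages with 4 further gates. Class comparisons needed 50 cells in both libraries.

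UMIs were summed per library and class and scaled to CPM. Ratios added 0.5 UMI to each sum and carry exact conditional binomial 95% intervals (scipy 1.17.1). Levels carry Poisson and shares Clopper-Pearson intervals, and a count of 0 was bounded by 3 counts. No interval covers spread between animals, and with a single library for each source there is no test or p-value. A gene counted as measured with 10 UMIs in both sums together, and as apart at 2-fold.

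Named were all 9 genes and, of each pathway list, up to 4 genes per direction 2-fold or more apart with 50 CPM and 30 UMIs in the higher library, of which examples are given. The members, markers and lists were chosen with earlier results of these data known. The handling, glucocorticoid and haemoglobin lists were added later. On simulated sums for all cells of the allograft and native libraries, with 12373 genes, intervals held the true ratio for 96.5% of 200 changed genes and 100% were called. Alternatives were other cell filters, gates, scalings and thinning. Scripts ran under Python 3.11.15 with pandas 2.3.3, numpy 2.4.6, matplotlib 3.10.9 and anndata 0.12.19.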

Additional observations from a re-analysis of the deposited data

Results flagged for a closer look

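The Hmox1 difference between allograft and native cells had opposite directions in 2 classes: the log2 ratio was 1.42 in classical monocytes and -2.28 in T cells. In the T cell value 2 of 200 native cells held 66.1% of the UMIs, and it was -1.23 with the exclusive gate and -1.36 after thinning. With 1 library per source, the difference between the classes was not tested.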

How the results depend on the processing

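Of 528 recomputed log2 ratios of the 9 genes, 503 kept their side of 2-fold, 25 crossed it, 2 of those past 2-fold reversed, and 218 moved outside the counting interval. The counts of genes 2-fold or more apart stayed within 1.5 times in each comparison that was recomputed. Recomputed were all cells for each pair of libraries and, for allograft against native, macrophages, neutrophils and T cells. Classical monocytes, the comparisons within macrophage gates and the class comparisons with the spleen were not recomputed. The reversals were those of Tfrc: 0.13 in place of -1.69 for native against spleen over all cells after thinning, and 0.14 in place of -1.52 for allograft against native macrophages without the Lyve1 type, an alternative chosen after seeing the data. Tfrc in T cells, not past 2-fold at -0.30, turned to 1.23 without cells with Rag1, Rag2 or Dntt, also chosen after seeing the data. Slc40a1 over all cells stood at 1.02 without a cell filter, 1.12 with a stricter one and 1.01 with doublets kept, just past 2-fold, and at 1.09 as a mean of CPM per cell. Tfrc in neutrophils was 0.24 after thinning in place of 1.17. The cause of these changes was not tested. The median-of-ratios shift of allograft over native log2 ratios was 0.21 in classical monocytes and in macrophages outside the gates, 0.14 in the Cd5l type and 0.10 in neutrophils. No paired analysis was possible because the matrices do not tie cells to the 4 samples of each source. Members with few UMIs, Tfrc and Slc40a1 outside macrophages and neutrophils, are limited by depth.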
